A study of Vitis vinifera with 24 samples.

Results

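The genes described here are those whose transcripts were lower in grapevine leaves under each of 3 abiotic stresses, cold, salt and osmotic stress, than in unstressed leaves. They are the genes with at least 1 FPKM (fragments scaled to transcript length and to the mapped total of a library) in at least 3 libraries whose mean log2(FPKM + 1) in the cold, under NaCl and under PEG6000 lay at least 1 below that of control leaves, a 2-fold fall on this scale. Of 20053 genes that passed the level filter, among 35840 in the deposited table, 105 met this rule. The rule used the control, cold, NaCl and PEG6000 libraries, so the falls in those libraries chose the genes and are given as a description. The 4 groups given trehalose took no part in the 2-fold conditions, and tests compared only these groups. The spread used in the tests was estimated over all 8 groups, so libraries used by the rule entered it.

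RNA was sequenced from leaves of self-rooted cuttings of Vitis vinifera 'Thompson Seedless', a seedless table and raisin grape, grown in a greenhouse at 25 to 30 ℃. The 8 groups of 3 libraries were untreated leaves (control), leaves given trehalose (Tre), leaves at 4 ℃ (cold), leaves under NaCl, leaves under PEG6000, and leaves given trehalose together with cold (Tre+cold), with NaCl (Tre+NaCl) or with PEG6000 (Tre+PEG6000). Treated leaves were sampled at 48 h, and the labels give neither a time for the control nor a dose, nor the order of trehalose and stress. All plants belong to 1 cultivar, and the labels call the replicates biological without saying whether they were separate plants, and the p-values describe only variation among the libraries at hand.

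Cold slows membrane and enzyme function, NaCl adds ion toxicity to water deficit, and PEG6000, a large polymer that does not readily enter cells, withdraws water without added salt. In plants such stresses are known to lower many transcripts of growth and photosynthesis while raising those of protection and repair. Trehalose is a sugar of paired glucose units that protects proteins and membranes in many organisms, and its phosphate ester is a sugar signal in plants. Identifiers in the deposited table are not paired with gene names or functions, so the genes are given by identifier, no role is attached to any of them, and no sequence or leaf cell type marker could be matched. In RNA from whole leaves, fewer cells of a type and less RNA per cell cannot be told apart.

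FPKM summed to between 597567 and 637648 per library, and the sequencing depth is unknown. Replicates of a group correlated at 0.994 to 0.997 and libraries of different groups at 0.823 to 0.989 (Pearson's r of log2(FPKM + 1) over 20053 genes), and no pair of libraries was identical. By these correlations no library stood apart from its group. They do not measure shifts in level. The share of the summed FPKM held by the lowered genes varied most among Tre+PEG6000 libraries (SD 0.16%, n = 3). Vitvi10g00740, the most abundant of these genes, was at 7857, 6605 and 6799 FPKM there.

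The lowered genes were well expressed in unstressed leaves, which the rule favours. Their median level in control was 25.4 FPKM, against 7.52 FPKM for all tested genes, and 88 of the 105 exceeded that overall median. A fall of 1 in log2(FPKM + 1) is out of reach for a gene under 1 FPKM in control. This difference was therefore partly set by the rule and was not tested. Other genes lowered at least 2-fold by cold, NaCl or PEG6000 had control medians of 10.6, 15.2 and 19.2 FPKM. Levels ran from 1.98 to 10342 FPKM, with 20 genes at 100 FPKM or more and 25 genes under 10 FPKM. Every control library held at least 1 FPKM of all 105 genes, so each passed the level filter through control alone. Together they held 4.201 ± 0.089% of the summed FPKM in control leaves (SD, n = 3), 1.49 ± 0.020% in the cold, 1.81 ± 0.0031% under NaCl and 1.38 ± 0.027% under PEG6000. The share was 4.25 ± 0.037% in Tre, 1.79 ± 0.039% in Tre+cold, 3.16 ± 0.021% in Tre+NaCl and 3.35 ± 0.16% in Tre+PEG6000 leaves. Abundant genes weigh most in this share, with Vitvi10g00740 and Vitvi07g02246 at means of 10342 and 5041 FPKM in control. For the median gene the spread between replicates was small beside the falls under stress. The median coefficient of variation over the 105 genes was 3.22% in control and at most 8.16%, under PEG6000, in any group. Single genes near the floor varied more, up to 107% in the cold (Vitvi03g04032, mean 0.148 FPKM) and 73.7% under PEG6000.

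The groups fell into a clear order by the median of the lowered genes within a library. PEG6000 libraries were lowest, at 3.94 to 4.17 FPKM. Cold libraries followed at 4.94 to 5.50 FPKM and Tre+cold libraries at 6.93 to 7.20 FPKM. Leaves under NaCl were at 9.75 to 9.90 FPKM and Tre+NaCl leaves at 18.5 to 19.4 FPKM. Control libraries, at 24.7 to 26.2 FPKM, overlapped Tre+PEG6000 libraries, at 25.2 to 26.8 FPKM, and Tre libraries were highest at 31.0 to 34.0 FPKM. Of these neighbours in the order, control and Tre+PEG6000 were the pair whose libraries overlapped.

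**Figure D1:**
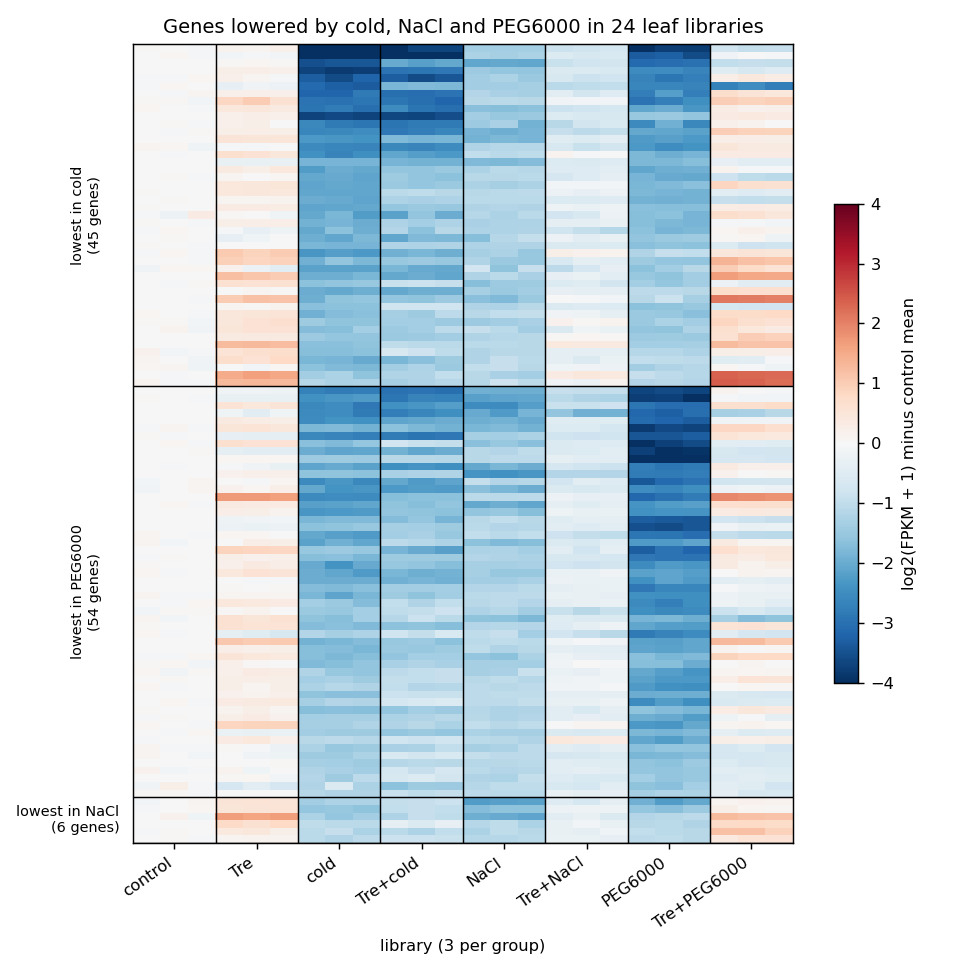
Levels of the 105 lowered genes (rows) in the 24 libraries (columns, 3 per group), as log2(FPKM + 1) minus the control mean of each gene, with the rows divided by the single stress in which each gene was lowest. Cold, Tre+cold, NaCl and PEG6000 columns are blue throughout, Tre+NaCl columns are paler, and Tre+PEG6000 columns mix red and blue.

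Without trehalose the falls were deepest under PEG6000 and in the cold and shallowest under NaCl. The median log2 change against control was -2.10 under PEG6000, -1.81 in the cold and -1.21 under NaCl, where all 20053 tested genes had medians of 0.05, -0.20 and 0.14. These values describe the choice of genes, since a fall of at least 1 was required, and such a fall was met by 7.73% of all tested genes under PEG6000, 13.6% in the cold and 0.967% under NaCl. NaCl was the narrowest condition: it gave the smallest of the 3 falls for 88 genes, PEG6000 for 11 and cold for 6. A 4-fold fall was reached by 55 genes under PEG6000, 41 in the cold and 8 under NaCl. Among these stresses the lowest mean FPKM was found under PEG6000 for 54 genes, in the cold for 45 and under NaCl for 6. As a share of the control level, the median gene kept 19.0% under PEG6000, 24.1% in the cold and 38.8% under NaCl.

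The limit of 2-fold cut through a continuous range. Just inside it, Vitvi09g00488 was at 27.7, 29.6 and 27.6 FPKM in the control libraries and 13.2, 13.3 and 14.3 FPKM under NaCl, a log2 change of -1.005. Just outside it, Vitvi01g00500 went from 13.5, 11.98 and 15.1 FPKM in control to 6.73, 6.11 and 5.88 FPKM under NaCl, a log2 change of -0.999, with changes of -1.19 in the cold and -1.69 under PEG6000. The smallest of the 3 falls lay between 1 and 1.1 for 35 of the 105 genes, and between 0.9 and 1 for 51 genes that the rule left out. Because 1 is added to FPKM before the logarithm, the rule understates falls of low genes, and with 0.1 in place of 1 it would have taken 201 genes, all 105 among them.

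The most abundant of the lowered genes was Vitvi10g00740. It was at 10579.9, 10759 and 9686 FPKM in control, 4651, 4446 and 4440.0 in the cold, 4987, 4852 and 4916 under NaCl and 4085, 4360.3 and 4286 under PEG6000, so that it kept 43.6%, 47.6% and 41.0% of its control level. Vitvi07g02246 was at 5108, 5045 and 4969.9 FPKM in control and at 1395, 1402 and 1377 in the cold, 1467, 1458 and 1507 under NaCl and 1463, 1462 and 1542 under PEG6000. These stress libraries lay within 1377 to 1542 FPKM, far below the controls, with nearly the same level under all 3 stresses.

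Of the genes with at least 5 FPKM in control, Vitvi03g00064 and Vitvi03g01350 had the deepest mean falls. Vitvi03g00064 was at 106, 102 and 100.1 FPKM in control, 2.19, 1.86 and 3.32 in the cold, 39.04, 39.4 and 39.2 under NaCl and 5.29, 6.62 and 6.49 under PEG6000. Cold and PEG6000 left 2.40% and 5.98% of its control level, and NaCl left 38.3%. Vitvi03g01350 was at 31.8, 32.7 and 29.3 FPKM in control and at 0.533, 0.293 and 0.509 in the cold, 12.5, 11.9 and 12.4 under NaCl and 2.21, 2.35 and 1.69 under PEG6000. Its cold libraries were all below 1 FPKM, as were the group means of 16 of the 105 genes in the cold, 14 under PEG6000 and 4 under NaCl.

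**Figure D2:**
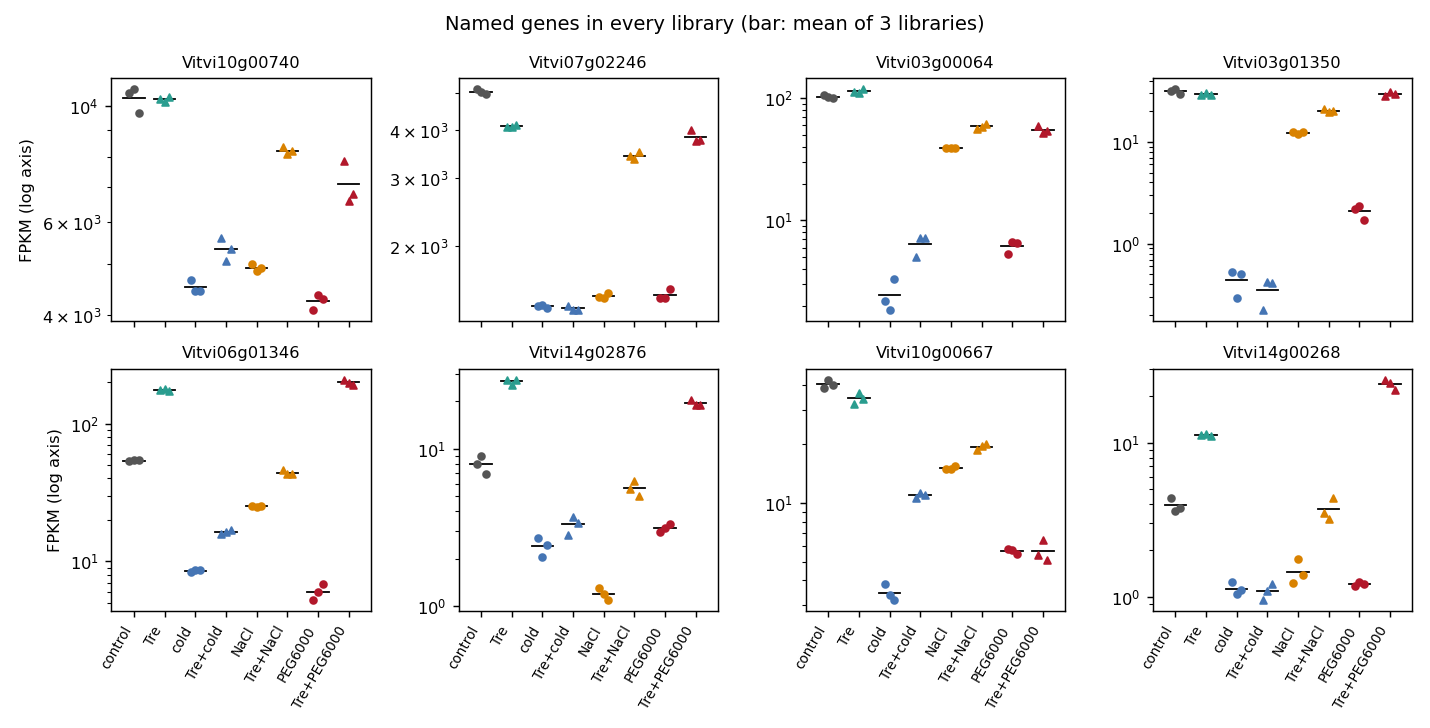
FPKM of 8 of the named genes in each library on a log axis, with circles for groups without trehalose, triangles for groups with trehalose and a bar at the mean of 3 libraries. Libraries of a group lie close together, and Vitvi10g00667 is the gene in which Tre+PEG6000 stays at the PEG6000 level.

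Trehalose without stress left most of these genes near or above control. The median log2 change of Tre against control was 0.22, with 0.00 for all tested genes, and the range ran from -0.59 to 1.68. In 97 genes the Tre mean was within 2-fold of control, and in 8 it was at least 2-fold higher (1.03% of all tested genes were). Every Tre library lay above every control library in 66 genes, where 22.7% of all tested genes did so, and below in 12, where 19.7% did. The genes were chosen for high levels in these control libraries, so no test was made of this difference. Vitvi06g01346 had the largest difference upward, from 53.4, 54.2 and 54.04 FPKM in control to 176, 177 and 171 in Tre leaves. Vitvi19g00554 had the largest difference downward, from 10.002, 13.2 and 10.6 to 6.62, 8.07 and 6.73 FPKM.

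In leaves given trehalose, cold again lowered the whole set. Against Tre, all 105 genes were lower in Tre+cold at an adjusted p below 0.05 (limma, Benjamini-Hochberg over 20053 genes), 96 of them at least 2-fold, and 0 were higher. Among all tested genes 52.6% were called lower, 30.3% were called higher and 11.7% were lower and at least 2-fold. The median log2 change was -1.80, with an interquartile range of -2.41 to -1.39 and a median of -0.20 over all tested genes. In 104 of the 105 genes every Tre+cold library lay below every Tre library (53.1% of all tested genes), and in 0 every library lay above (31.2%). The highest adjusted p in the set was 0.033.

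Vitvi03g01350 and Vitvi03g00064 fell the most in this comparison too. Vitvi03g01350 went from 28.6, 30.2 and 29.03 FPKM in Tre leaves to 0.224, 0.426 and 0.408 in Tre+cold leaves, a log2 change of -4.49 (SE 0.08, limma adjusted p = 5.67e-24). Vitvi03g00064 went from 112, 110.2 and 118 to 4.99, 7.15 and 7.20 FPKM, a log2 change of -3.96 (SE 0.11, limma adjusted p = 1.02e-19). For Vitvi10g00740 the levels were 10321, 10197 and 10399 FPKM in Tre leaves and 5600.2, 5054 and 5345 in Tre+cold leaves, a smaller fall with a log2 change of -0.95 (SE 0.05, limma adjusted p = 9.02e-15). In each of these genes the groups did not overlap.

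Salt lowered nearly all of the set in trehalose-treated leaves, but by less. Against Tre, 99 of the 105 genes were lower in Tre+NaCl by the same test, 0 were higher and 6 were not called. Of all tested genes 16.1% were called lower and 33.4% higher. The median log2 change was -0.73, against 0.07 over all tested genes, and 23 genes fell at least 2-fold (0.539% of all tested genes). The changes ran from -2.07 to 0.04. Every Tre+NaCl library lay below every Tre library in 99 genes (18.7% of all tested genes) and above in 0 (38.1%).

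Vitvi14g02876 and Vitvi06g01346 had the deepest falls under salt with trehalose. Vitvi14g02876 was at 27.5, 25.6 and 27.2 FPKM in Tre leaves and 5.58, 6.24 and 5.01 in Tre+NaCl leaves, a log2 change of -2.07 (SE 0.09, limma adjusted p = 8.75e-15). Vitvi06g01346 was at 176, 177 and 171 and 45.8, 43.01 and 43.1 FPKM, a log2 change of -1.97 (SE 0.05, limma adjusted p = 7.46e-19). In control Vitvi14g02876 was at 8.00, 9.05 and 6.91 FPKM, so both genes were higher in every Tre library than in any control library. Their Tre+NaCl means were 70.2% and 81.6% of control.

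Under PEG6000 the set divided when trehalose was present. Against Tre, 52 of the 105 genes were lower in Tre+PEG6000, 32 were higher and 21 were not called (limma, adjusted p below 0.05). Of all tested genes 15.5% were called lower and 48% higher. The median log2 change was -0.12, with an interquartile range of -0.54 to 0.20 and a median of 0.15 over all tested genes. Falls of at least 2-fold were called in 9 genes (0.753% of all tested genes) and a rise of at least 2-fold in 1 (6.17%). Every Tre+PEG6000 library lay below every Tre library in 54 genes (16.5% of all tested genes) and above in 32 (48.9%). With median-of-ratios scaling, which sets the median change of all genes near 0, 61 genes were lower and 16 higher, and the median was -0.27. With quantile normalization 59 were lower and 22 higher. The medians over all tested genes were then 0.02 and -0.05. The shares of all tested genes called under these scalings were not counted, so the 15.5% and 48% do not apply to these counts.

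Vitvi10g00667 and Vitvi03g00318 fell the most. Vitvi10g00667 was at 32.2, 36.6 and 33.97 FPKM in Tre leaves and 5.39, 6.44 and 5.09 in Tre+PEG6000 leaves, a log2 change of -2.41 (SE 0.07, limma adjusted p = 1.96e-19). Vitvi03g00318 was at 18.8, 17.4 and 18.7 and 4.17, 2.92 and 3.27 FPKM, a log2 change of -2.12 (SE 0.10, limma adjusted p = 5.61e-15). The libraries of both genes were far apart between the groups.

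Vitvi14g00268 and Vitvi07g00741 rose the most. Vitvi14g00268 was at 11.1, 11.3 and 11.1 FPKM in Tre leaves and 25.6, 24.3 and 22.1 in Tre+PEG6000 leaves, a log2 change of 1.04 (SE 0.09, limma adjusted p = 6.89e-10), although PEG6000 without trehalose had left it at 1.17, 1.26 and 1.20 FPKM against 4.38, 3.62 and 3.78 in control. Vitvi07g00741 was at 16.1, 18.2 and 17.7 and 35.7, 35.2 and 33.4 FPKM, a log2 change of 0.97 (SE 0.10, limma adjusted p = 1.87e-08). Vitvi03g01350, among the deepest falls without trehalose, was at 28.01, 30.7 and 29.2 FPKM in Tre+PEG6000 leaves against 28.6, 30.2 and 29.03 in Tre leaves, a log2 difference of 0.00 (SE 0.08, limma adjusted p = 0.995), and its groups overlapped.

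**Figure D3:**
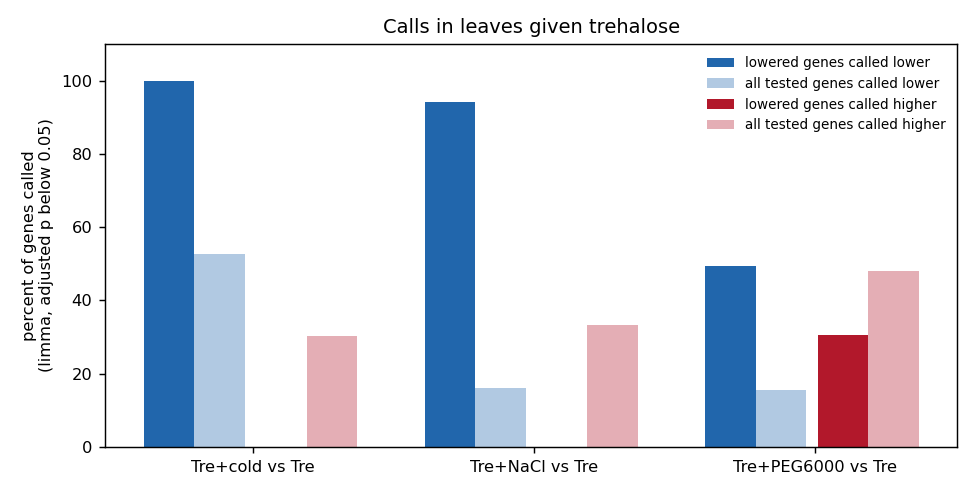
Percent of the 105 lowered genes (dark bars) and of all 20053 tested genes (pale bars) called lower (blue) or higher (red) than Tre leaves by limma at an adjusted p below 0.05. All 105 genes are called lower in Tre+cold and 99 in Tre+NaCl, while in Tre+PEG6000 52 are lower and 32 higher.

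Direct comparisons among the trehalose-treated stress groups gave the order cold, salt, PEG6000 from lowest to highest for most of the set. Tre+cold was lower than Tre+NaCl in 100 of the 105 genes and higher in 0 (limma, adjusted p below 0.05; 56.3% of all tested genes were lower and 27.7% higher), with a median log2 difference of -1.18. Tre+cold was lower than Tre+PEG6000 in 98 genes and higher in 2 (60.4% and 24.8% of all tested genes), with a median difference of -1.55. Tre+NaCl was lower than Tre+PEG6000 in 71 genes and higher in 18 (39.2% and 22.1% of all tested genes), with a median difference of -0.51. Differences of at least 2-fold were called lower in 61, 80 and 30 genes for these pairs in turn (12.2%, 17.5% and 6.16% of all tested genes), and higher in 0 genes for Tre+cold against Tre+PEG6000 (8.24%) and 2 for Tre+NaCl against Tre+PEG6000 (0.918%). The medians over all tested genes were -0.26, -0.34 and -0.07 for these pairs. Median-of-ratios scaling moved those overall medians to 0.01, -0.01 and -0.02, and the set then had 90 genes lower and 5 higher, 88 lower and 8 higher, and 64 lower and 19 higher. With this scaling the shares of all tested genes called were not counted. The 2 genes higher in Tre+cold than in Tre+PEG6000 were Vitvi10g00667, with a log2 difference of 0.85 (SE 0.07, limma adjusted p = 2.02e-11), and Vitvi03g00318, with 0.53 (SE 0.10, limma adjusted p = 3.32e-05).

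The 3 comparisons with Tre share the Tre libraries, so their values are not independent of each other. Set side by side, the stress effects with and without trehalose share no library, and their difference was not tested because the rule fixed the effects without trehalose. In the cold the medians were -1.81 without and -1.80 with trehalose, and the fall was smaller with trehalose in 63 genes and larger in 42. Under NaCl they were -1.21 and -0.73, and the fall was smaller with trehalose in 98 genes and larger in 7. Under PEG6000 they were -2.10 and -0.12, and with trehalose the fall was smaller, or gave way to a rise, in 103 genes and was larger in 2. Such counts were not made over all tested genes, and the set was chosen for its falls without trehalose. 

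**Figure D4:**
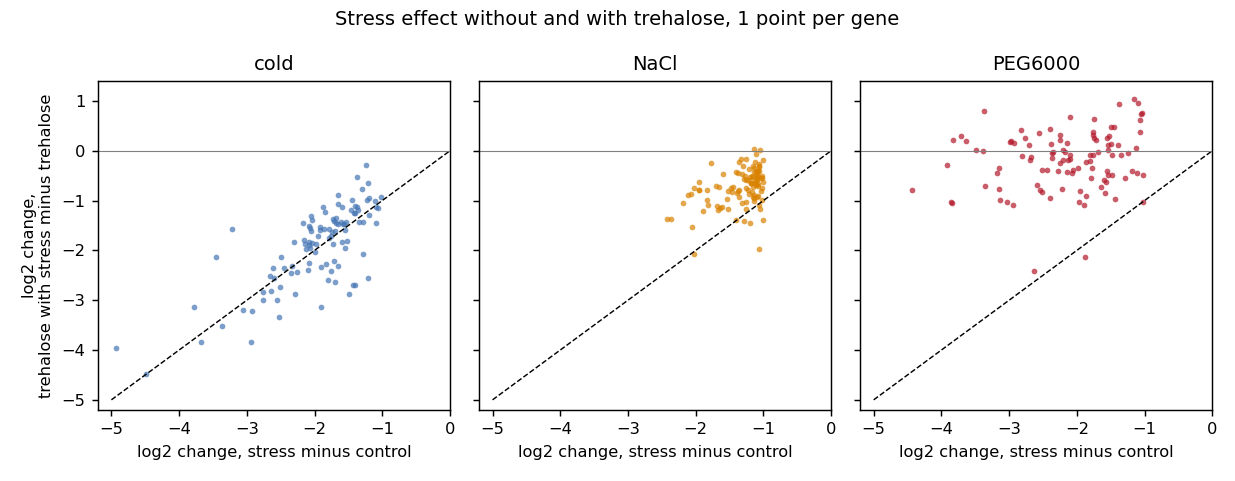
Log2 change of each of the 105 genes under a stress without trehalose (horizontal axis, stress minus control) and with it (vertical axis, trehalose with stress minus trehalose), with a dashed line where both are equal. Points lie around the line in the cold, above it in 98 of 105 genes under NaCl, and around 0 under PEG6000.

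Measured against the same stress without trehalose, the set was slightly higher in the cold and much higher under PEG6000. The median log2 difference was 0.32 for Tre+cold against cold, 0.83 for Tre+NaCl against NaCl and 2.26 for Tre+PEG6000 against PEG6000, with 0.04, -0.04 and 0.08 over all tested genes. Every library given trehalose lay above every library of the stress alone in 68 genes in the cold (30.9% of all tested genes), 101 under NaCl (23% of all tested genes) and 104 under PEG6000 (42.7% of all tested genes). Every library lay below in 9, 0 and 0 genes (21.5%, 35.6% and 33% of all tested genes). In the cold 28 genes overlapped, and 18 had a lower mean with trehalose. Differences of at least 2-fold upward were seen in 4, 33 and 94 genes, against 0.858%, 0.868% and 10.9% of all tested genes. No test was made, since the rule took genes that were low in the stress libraries.

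Vitvi06g01346 showed the largest such difference under PEG6000, at 5.23, 5.95 and 6.84 FPKM without and 209, 199 and 192 with trehalose. The difference was small in Vitvi03g00318, with means of 2.55 FPKM under PEG6000 and 3.45 FPKM in Tre+PEG6000 leaves. Vitvi10g00667 was the 1 gene without a higher mean in Tre+PEG6000 than in PEG6000 leaves. It was at 5.78, 5.74 and 5.48 FPKM under PEG6000 and 5.39, 6.44 and 5.09 in Tre+PEG6000 leaves, 13.98% and 13.90% of control. In the cold the same gene had the largest difference upward, from 3.85, 3.36 and 3.17 to 10.6, 11.3 and 10.9 FPKM. The largest difference downward in the cold was in Vitvi06g00790, from 9.04, 9.59 and 9.07 to 6.93, 6.16 and 5.35 FPKM. Under NaCl the largest difference was in Vitvi06g00119, from 2.08, 2.23 and 2.28 to 9.27, 7.91 and 10.3 FPKM, and no gene of the set had a lower mean with trehalose.

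Against control, 86 genes were still at least 2-fold lower in Tre+cold leaves (9.64% of all tested genes were), 4 in Tre+NaCl leaves (0.0997%) and 4 in Tre+PEG6000 leaves (0.778%). The median gene was at 31.6% of its control level in Tre+cold, 70.5% in Tre+NaCl and 107% in Tre+PEG6000 leaves. In Tre+NaCl leaves 92 genes still had every library below every control library (14.2% of all tested genes) and 6 had every library above (39.8%). In Tre+PEG6000 leaves 41 had every library below (18.4%) and 50 every library above control (50.6%), and 10 were at least 2-fold above it (9.53%). The highest was Vitvi14g00268, at 24.01 ± 1.77 FPKM (SD, n = 3) against 3.93 ± 0.401 in control, or 611% of control. Over the 8 groups the highest mean was found in Tre leaves for 49 genes, Tre+PEG6000 for 36, control for 19 and Tre+NaCl for 1.

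**Figure D5:**
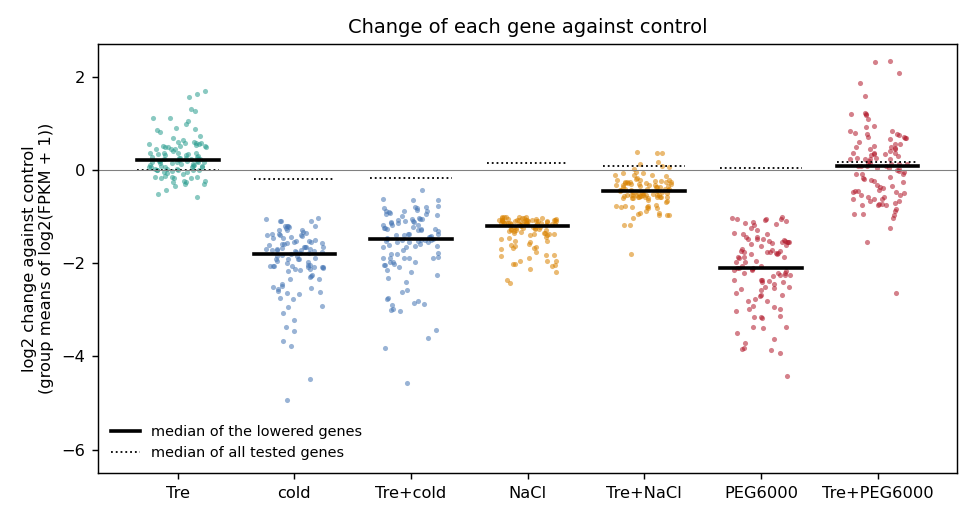
Log2 change against control of each of the 105 genes in the 7 treated groups (points), with the median of the set (solid bar) and of all tested genes (dotted bar). Points of the cold, NaCl and PEG6000 groups lie below -1 by the rule, while the median of Tre+PEG6000 leaves is 0.09.

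The calls in Tre+PEG6000 against Tre were also counted by level in control, for the set and for all tested genes. Of the 20 genes at 100 FPKM or more in control, 18 were lower and 2 higher in Tre+PEG6000 than in Tre leaves, with a median log2 change of -0.48, and of the other 85 genes 34 were lower and 30 higher, with a median of -0.04. The same division was present in all tested genes: of the 839 at 100 FPKM or more in control 58.2% were called lower and 25.6% higher, with a median of -0.19, and of the 19214 others 13.7% were lower and 49% higher, with a median of 0.16. Vitvi10g00740, 1 of the 20 abundant genes of the set, was at 10321, 10197 and 10399 FPKM in Tre and 7857, 6605 and 6799 in Tre+PEG6000 leaves, a log2 change of -0.54 (SE 0.05, limma adjusted p = 8.45e-10). Vitvi07g02246 was at 4074, 4084 and 4119 and 4008, 3743 and 3778 FPKM, a log2 change of -0.09 (SE 0.03, limma adjusted p = 0.00343) that was 0.27 with quantile normalization. In Tre+cold and Tre+NaCl the abundant genes had medians of -1.49 and -0.62, and the other genes -1.83 and -0.74. The division by level was made after the values were seen and was not tested.

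Genes lowered by a single stress outside the set are given for comparison. The 1445 other genes lowered at least 2-fold by PEG6000 had a median log2 change of -1.29 without and -0.26 with trehalose, where the set had -2.10 and -0.12. For the 2614 other genes lowered by cold the medians were -1.32 and -1.16, where the set had -1.81 and -1.80. For the 89 other genes lowered by NaCl they were -1.18 and -0.61, where the set had -1.21 and -0.73. The median Tre change against control was 0.01, -0.01 and 0.20 in these other genes and 0.22 in the set. These lists were chosen from the same libraries, and no difference between them was tested.

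The identifiers of the set were spread over the table. All 105 begin with Vitvi, and 0 of the 475 tested PT_newGene identifiers were among them. The share of identifiers beginning with Vitvi03 was 10.5% in the set (11 genes) and 3.98% among tested genes, and 8 of these 11 lay within 10 identifier numbers of another gene of the set. Identifiers beginning with Vitvi07 were as many (11 genes), with 7.31% among tested genes. Numbers as close were also found for 2 Vitvi07 genes and 2 Vitvi11 genes. Vitvi03g01350, Vitvi03g01351 and Vitvi03g01353, of 1 such run, were all below 1 FPKM in every cold library. So were Vitvi03g04029, Vitvi03g04032 and Vitvi03g04033, of another run. In a further run Vitvi03g00315 was at 22.9, 23.6 and 25.3 FPKM in the cold, 32.2% of control. Its neighbour Vitvi03g00318 was at 3.28, 3.02 and 4.06 FPKM there, 28.7% of control. Vitvi03g01353 was at 9.67, 9.14 and 10.7 FPKM in control, 0.195, 0.199 and 0.508 in the cold and 16.7, 14.3 and 13.5 in Tre+PEG6000 leaves. Reads of near-identical copies may have been divided among such genes by the authors' estimation, so their values are uncertain and may not be independent. They were singled out after their values were seen.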

How the data were processed

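Leaf RNA from 24 libraries (8 groups of 3) was deposited as 1 table of FPKM values, computed by the authors per library and not pooled; per the submitters' processing notes, the tools were StringTie 2.1.3b, SAMtools 1.9, HISAT2 2.1.0 and fastp 0.20.0, listed without role or order. For genome build, annotation and strandedness the sources used here give nothing. Columns were matched to samples by name, with 0 unused. Whole reads could not be recovered: over 1911 genes below 0.2 FPKM in 2 control libraries, no 2% window held more than 1.99% of their ratios. FPKM ties each gene to its library's total. Of the identifiers, 0 matched the reference table (another assembly), so the 7 pathway lists and the cell type markers were not used.

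Values were taken as log2(FPKM + 1) for genes at 1 FPKM or more in at least 3 libraries. The 6 comparisons among groups given trehalose were tested with limma 3.58.1 in R 4.3.3 (eBayes with trend, 1 mean per group, 16 residual degrees of freedom, two-sided, Benjamini-Hochberg over all tested genes, call at adjusted p below 0.05). Figures used Python 3.11.15 and matplotlib 3.10.9.

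The members and the lists were chosen with earlier results of these data known. Named genes are the 2 most abundant in control, the 2 with the deepest mean fall, up to 2 per direction with the largest called change against Tre, those with the largest difference between Tre and control or between a stress with and without trehalose, each with at least 5 FPKM in the higher group (for called changes also without overlap), and those nearest the limit of the rule. Alternatives covered the pseudocount, filter, scaling, variance model, samples in the fit, a replicate block, each library left out in turn, and calls of at least 2-fold.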

Additional observations from a re-analysis of the deposited data

Results flagged for a closer look

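In 32 of the 105 genes every PEG6000 library lay below every control library and every Tre+PEG6000 library lay above every Tre library. These are 30.5% of the set, below the 48.9% of all tested genes with every Tre+PEG6000 library above every Tre library. In that comparison 32 genes of the set were called higher, and 16 were with median-of-ratios scaling, for which no share of all tested genes was counted. The fall without trehalose was required by the rule, and the difference between these effects was not tested. Of the named genes, Vitvi14g00268 moved in this way with a log2 change of 1.04 for Tre+PEG6000 against Tre, Vitvi07g00741 with 0.97 and Vitvi06g01346 with 0.19. For Vitvi06g01346 the rise was not called with median-of-ratios scaling (log2 change 0.03, limma adjusted p = 0.699). All libraries given trehalose with cold or NaCl above the Tre libraries were found in 0 of the 105 genes.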

How the results depend on the processing

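Direction and counts were stable for cold and salt and less so for PEG6000. Apart from the added 2-fold limit, calls of lower genes stayed within 1.5 times of the reported counts in all 6 comparisons. Of the calls, 104 of 105 in Tre+cold, 95 of 99 in Tre+NaCl and 46 of 52 in Tre+PEG6000 against Tre were kept under all 35 other fits that tested the gene, and 13 of the 32 higher calls in Tre+PEG6000 were. With a 2-fold limit the lower calls were 23 for Tre+NaCl and 9 for Tre+PEG6000 against Tre, 61 for Tre+cold against Tre+NaCl and 30 for Tre+NaCl against Tre+PEG6000, and the higher calls 1 for Tre+PEG6000 against Tre, 0 for Tre+cold and 2 for Tre+NaCl against Tre+PEG6000. With median-of-ratios scaling the higher calls were 16 for Tre+PEG6000 against Tre, 5 for Tre+cold against Tre+NaCl and 8 for Tre+cold against Tre+PEG6000, and with quantile normalization the last 2 were 2 and 6. Shares of all tested genes called under these scalings were not counted. The median log2 change for Tre+cold against Tre was -1.92 and -1.93 with pseudocounts of 0.1 and 0.01, -1.72 at a mean of at least 5 FPKM, -1.60 with median-of-ratios scaling and -1.66 with quantile normalization. For Tre+NaCl it was -0.76 with both pseudocounts, -0.81 with median-of-ratios scaling and -0.77 with quantile normalization, and for Tre+PEG6000 -0.27 with either scaling. Median-of-ratios scaling moved the median of all genes by 0.20 for Tre+cold against Tre, from -0.20 to 0.00, and for Tre+PEG6000 from 0.15 to 0.02. Leaving out 1 library gave medians of -1.81 to -1.74, -0.73 to -0.68 and -0.17 to -0.10 for Tre+cold, Tre+NaCl and Tre+PEG6000 against Tre, and 49 to 54 lower and 28 to 32 higher genes in the last.

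The rule took 201 and 228 genes with pseudocounts of 0.1 and 0.01, 163 with quantile normalization, 147 with median-of-ratios scaling (98 of the 105 among them) and 93 with TPM-like scaling, and 101 to 116 without 1 library. Of 2940 values of named genes, 12 lost their call without a reversed direction. Among these, Vitvi10g00740 in Tre+cold against Tre+NaCl went from -0.62 to 0 with quantile normalization. With quantile normalization Vitvi07g02246 reversed to 0.27 in Tre+PEG6000 against Tre (limma adjusted p = 3.16e-07). Vitvi10g00740 went to -0.16 in Tre+NaCl against Tre+PEG6000 under the same setting, with its call lost (limma adjusted p = 0.110). Vitvi09g00488 in Tre+cold against Tre+PEG6000, at -0.04, was 0.34 with median-of-ratios scaling and 0.20 with quantile normalization. The cause of these shifts was not tested.

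The labels do not tie replicate numbers across groups, and same-numbered libraries deviated together in 0 of 18 pairs (r of -0.095 to 0.088, where over 0.1 was required). With the replicate block the counts were 105, 99 and 52 lower and 32 higher against Tre, and no count moved by over 1.5 times. Depth is unknown, so its limit on low genes could not be given.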
